A study of Mus musculus with 30 samples.

Results

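Serpins are protease inhibitors that trap their target enzyme by an irreversible change of shape, and clade A holds most of those that the liver secretes into plasma. The values here concern 10 clade A serpin genes, *Serpina1a*, *Serpina1b*, *Serpina1c*, *Serpina1d*, *Serpina1e*, *Serpina3k*, *Serpina3m*, *Serpina3n*, *Serpina6* and *Serpina10*, found by gene symbol. They were 10 of the 54429 genes counted in a liver time course and 10 of the 55471 genes counted in a liver knockout experiment, and every one of the 10 was found in both tables and passed the filter on low counts in both.

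The time course had 18 libraries from livers of male C57BL/6J mice of 2, 6 and 12 months, taken at zeitgeber times (ZT, hours after lights on) 1, 5, 9, 13, 17 and 21, with 1 library for each age and time. The knockout experiment had 12 libraries from wild-type (WT) mice and liver *Egr-1* knockout (KO) mice of 2, 6 and 12 months, with 1 library for each genotype, age and time of collection. KO mice carried floxed *Egr-1*, the gene of an early response transcription factor, and Cre recombinase driven by the albumin promoter, which is active in hepatocytes. WT mice were their littermates, and the line came from strain 129 and was crossed back to C57BL/6J. The collection times H and L were ZT13 and ZT17 at 2 months, ZT9 and ZT21 at 6 months and ZT5 and ZT21 at 12 months, so age and time of day cannot be told apart in these 12 libraries where 2 months is compared with another age. The labels do not say how many animals a library held. Libraries of other times or ages of the same group therefore stood in for replicates, and p-values measure the spread between these libraries only.

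*Serpina1a* to *Serpina1e* are the mouse copies of the gene for alpha-1 antitrypsin, the plasma inhibitor of neutrophil elastase. *Serpina3k*, *Serpina3m* and *Serpina3n* belong to the mouse group related to human alpha-1 antichymotrypsin, and *Serpina3n*, which inhibits serine proteases of leukocytes, is an acute-phase gene that the liver raises in inflammation. *Serpina6* encodes corticosteroid-binding globulin, which carries glucocorticoids in plasma and does not act as an inhibitor. *Serpina10* encodes the protein Z-dependent protease inhibitor, which blocks coagulation factor Xa together with protein Z.

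All 10 genes lie on chromosome 12 within 799544 bases of the mouse genome build GRCm38. From *Serpina10* at position 103614786 the order is *Serpina10*, *Serpina6*, *Serpina1b*, *Serpina1d*, *Serpina1a*, *Serpina1c*, *Serpina1e*, *Serpina3k*, *Serpina3m* and *Serpina3n*, which ends at 104414329. The first 7 are read from the minus strand and the 3 *Serpina3* genes from the plus strand. The annotated span of *Serpina1b* (103728156 to 103830373) encloses *Serpina1d* (103763594 to 103773592), but no exon base is shared. *Serpina3k* and *Serpina3m* start in the same 60-base exon. Of the exon bases of *Serpina1c*, 31.5% lie opposite exons of B430119L08Rik on the other strand, and reads of both cannot be told apart where counting did not use strand.

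The promoters of the 5 *Serpina1* genes are shown because they are nearly alike, while the counts of the 5 genes were not. They are stretches of 91 bases just before the start that RefSeq gives for each gene. They are given 5′ to 3′ on the minus strand of GRCm38.p6, with the letters GTTAAT, a core of the motif of the liver factor HNF1, in capitals. Those of *Serpina1b* and *Serpina1e* lie inside the annotated spans of these genes, which end at 103830373 and 103958975, because that annotation sets other starts. The 5 windows lie on chromosome 12 at 103863625-103863715 (*Serpina1a*), 103738200-103738290 (*Serpina1b*), 103904962-103905052 (*Serpina1c*), 103773634-103773724 (*Serpina1d*) and 103956960-103957050 (*Serpina1e*).
Serpina1a: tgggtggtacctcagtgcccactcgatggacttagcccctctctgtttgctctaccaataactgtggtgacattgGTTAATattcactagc
Serpina1b: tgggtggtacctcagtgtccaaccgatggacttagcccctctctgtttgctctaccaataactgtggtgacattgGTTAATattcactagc
Serpina1c: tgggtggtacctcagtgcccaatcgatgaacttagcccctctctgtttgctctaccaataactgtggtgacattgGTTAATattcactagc
Serpina1d: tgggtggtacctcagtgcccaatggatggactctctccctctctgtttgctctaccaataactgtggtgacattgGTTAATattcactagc
Serpina1e: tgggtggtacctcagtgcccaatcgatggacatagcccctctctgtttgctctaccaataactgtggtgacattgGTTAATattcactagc

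Of the 91 positions, 81 held the same base in all 5 promoters, and the last 55 were identical. *Serpina1e* differed from *Serpina1a* at 2 positions of the window, and *Serpina1d* at 6. In *Serpina1e* the window ended 63 bases before the start site given by RefSeq, against 1 to 12 bases in the other 4 genes. On either strand of the 250 bases before the start, GTTAAT stood in all 5 *Serpina1* promoters and in 6.43% of 32851 promoters. The C/EBP letters TTGCNNAA stood in *Serpina1b*, *Serpina1d* and *Serpina1e* and in 9.56% of promoters. The STAT letters TTCNNNGAA (7.02% of promoters) and the EGR letters GCGNGGGCG (4.70%) were not found in these windows of the 6 members with a RefSeq promoter, *Serpina1a* to *Serpina1e* and *Serpina3n*.

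The transcripts of the 5 *Serpina1* genes were 92.1% to 97.9% identical over their 10 pairs. Reads can therefore be assigned to the wrong copy, and this limits the single genes more than their sum. Of all windows of 100 bases, 85.2% were found in no other transcript for *Serpina1e*, 79.4% for *Serpina1b* and 70.7% for *Serpina1d*. This share was 50.1% for *Serpina1a* and 41.5% for *Serpina1c*, which shared most windows with each other. It was 93.9% or more for *Serpina3k*, *Serpina3m* and *Serpina3n* and reached all windows for *Serpina6* and *Serpina10*. The 5 counts were therefore also added up and tested as 1 gene, called the *Serpina1* sum.

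Library totals were 13375377 to 16557378 counts in the time course and 13747706 to 21748956 in the knockout experiment. The lowest count of any member in any library was 646, for which counting error alone gives an exact Poisson 95% interval of 597 to 698. *Alb*, *Ttr*, *Apoa1* and other hepatocyte markers were high in every library, with 41342 CPM (counts scaled to the size of the library) or more in sum. In the time course, the 6-month livers stood apart by inflammation genes. *Lcn2* was 229 to 2313 CPM there against 6.22 to 10.5 CPM at 2 months, and 17 of 18 listed acute-phase genes rose, with a median log2 fold change of 2.13. Neutrophil markers summed to 25.2 to 143 CPM at 6 months and 2.97 to 7.89 CPM at 2 months, with *Ly6g* under 1 CPM in all libraries. Markers of other cells that rose were 3 of 5 for Kupffer cells, 3 of 4 tested for cholangiocytes, 2 of 5 for monocytes and 1 of 5 for sinusoidal endothelium. Of 6 hepatocyte markers 2 fell, as did 1 of 5 stellate cell markers. The part of these genes in the results on 6-month mice was not tested. In bulk liver, fewer cells of a type and less RNA per cell cannot be told apart.

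The 10 genes were strong liver transcripts. Together they took 3.81% to 4.86% of all counts in the 2-month time course, 3.31% to 4.37% in 6-month mice and 2.36% to 3.30% in 12-month mice. In the knockout experiment they took 1.6% to 3.01% of counts in WT and 1.42% to 2.57% in KO libraries. Levels were compared between genes as CPM per kilobase of annotated exon. *Serpina3k* was highest in all 18 time course libraries, with a median of 10257 CPM per kilobase at 2 months, and its range did not overlap that of any other member there. *Serpina1e* (median 3179) and *Serpina1b* (2893) followed at 2 months and overlapped each other. Their order depends on the length used. Annotated exons were 1617 bases for *Serpina1e* and 2415 for *Serpina1b*, and the longest transcripts 1575 and 1762 bases. *Serpina1d* (2213), *Serpina1a* (1308) and *Serpina1c* (1070) came next, and the ranges of *Serpina1a* and *Serpina1c* overlapped although *Serpina1a* was above *Serpina1c* in 6 of 6 libraries. *Serpina3m* (206) and *Serpina3n* (138) were lower without overlap, and *Serpina6* (62.0) and *Serpina10* (45.9) were lowest and overlapped.

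This order changed in a few places. At 6 months *Serpina3n* (median 560 CPM per kilobase) stood next to *Serpina3m* (450), and *Serpina10* (119) stood above *Serpina6* (43.9) in 5 of 6 libraries. At 12 months *Serpina6* (80.1) and *Serpina3n* (79.8) could not be separated, each being above the other in 3 of 6 libraries. The median of *Serpina1b* (2531) was above that of *Serpina1e* (2378) at this age, and *Serpina1e* was the higher gene in 3 of 6 libraries. In KO libraries *Serpina1e* stood in the fourth place by mean level, and its range, 81.6 to 2795 CPM per kilobase, overlapped those of every other member except *Serpina10*.

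**Figure D1:**
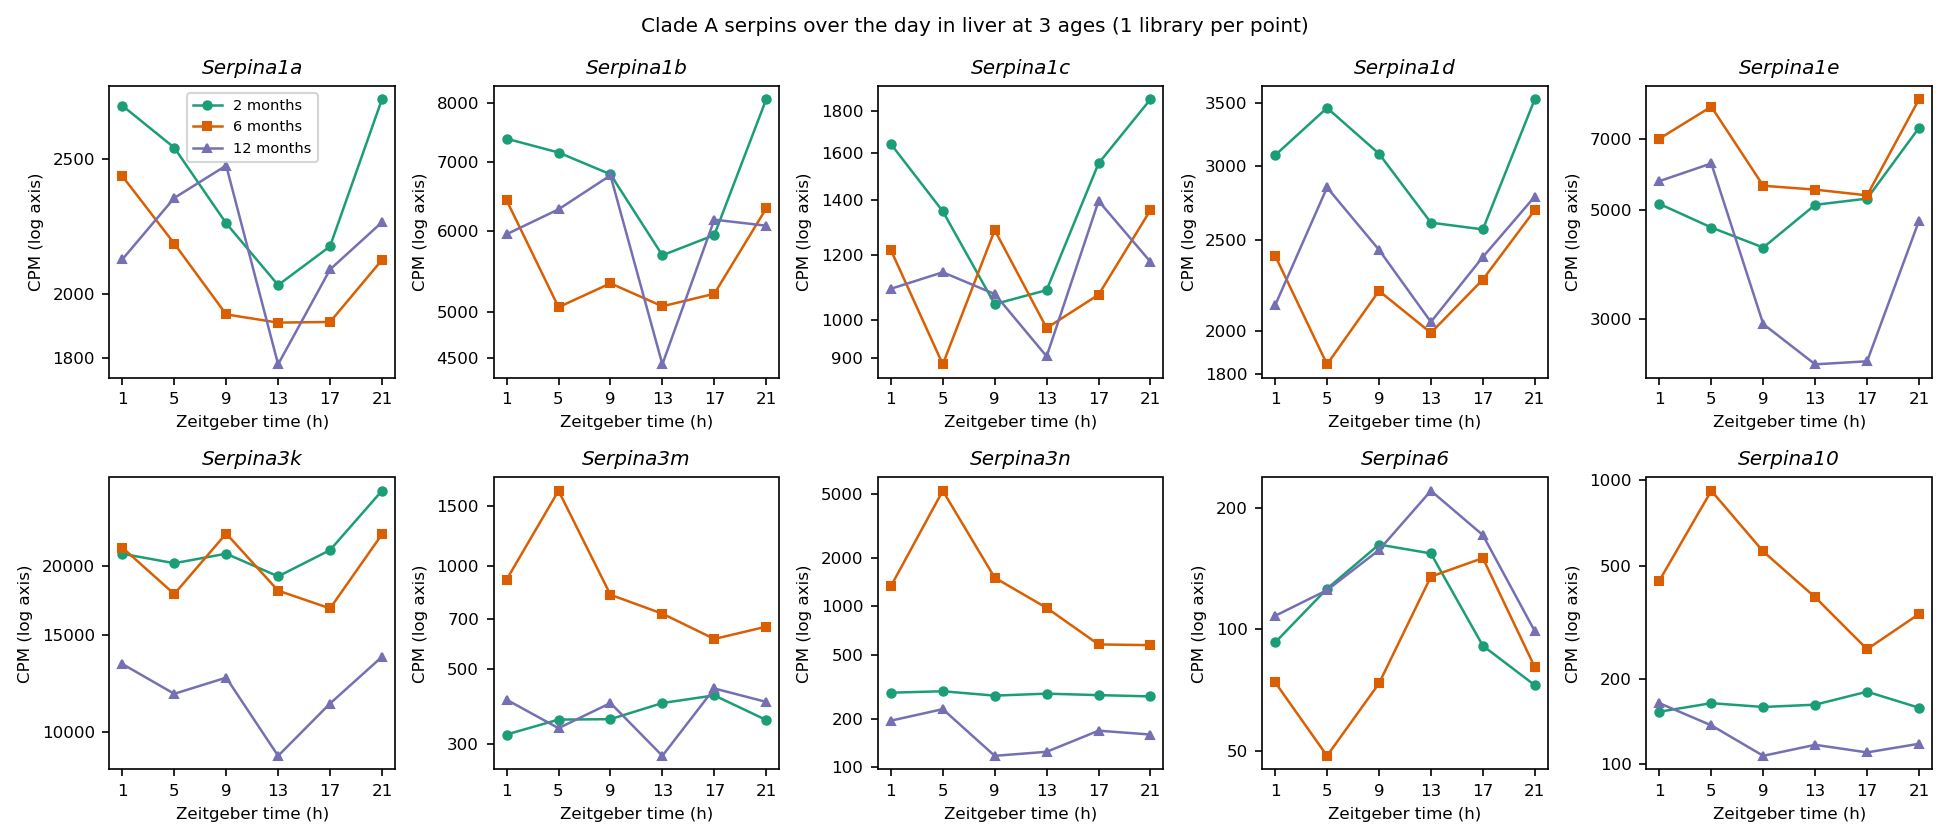
Each panel plots CPM (log axis) of a serpin gene against zeitgeber time in hours, with 1 library per point and a line for each age. *Serpina3m*, *Serpina3n* and *Serpina10* lie above the other ages in all 6 libraries of 6 months, and *Serpina3k* lies below the other ages in all 6 libraries of 12 months.

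The first comparison asks how the serpins differed between 6 and 2 months. *Serpina3n*, *Serpina10* and *Serpina3m* rose and *Serpina1d* fell. These were 4 of 10 members, while 13.6% of 13361 genes passed an adjusted p under 0.05 in this test, 7.11% with a higher and 6.47% with a lower level. *Serpina3n* was 276 to 297 CPM at 2 months (median 284) and 574 to 5217 CPM at 6 months (median 1155). Every 6-month library was above every 2-month library, and the spread at 6 months was wide, with the ZT5 library at 5217 CPM and the next highest, ZT9, at 1505 CPM. The log2 fold change was 2.18 ± 0.32 (SE), with an adjusted p of 0.000417.

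*Serpina10*, the inhibitor of factor Xa, was 153 to 180 CPM at 2 months (median 161) and 254 to 918 CPM at 6 months (median 415), without overlap. Its log2 fold change was 1.47 ± 0.19 (adjusted p = 0.000143). *Serpina3m* was 320 to 417 CPM at 2 months (median 355) and 611 to 1666 CPM at 6 months (median 774), again without overlap, and its log2 fold change was 1.24 ± 0.19 (adjusted p = 0.000537). For all 3 genes the ZT5 library was the highest of the 6-month libraries. Of 12470 genes whose mean reached 1 CPM, 4.65% did not overlap between 6 and 2 months.

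The antitrypsin genes did not share this pattern. *Serpina1d* was 2567 to 3532 CPM at 2 months and 1844 to 2691 CPM at 6 months and was lower at 6 of 6 time points, with ranges that overlapped. Its log2 fold change was -0.45 ± 0.10 (adjusted p = 0.0103). *Serpina1a* and *Serpina1b* were also lower at 6 of 6 time points and *Serpina1c* at 5 of 6, with log2 fold changes of -0.21, -0.29 and -0.31 that did not pass the test. *Serpina1e* was higher at 6 of 6 time points, from 1.02 to 1.76 times, with a log2 fold change of 0.31 ± 0.17 (adjusted p = 0.250). The *Serpina1* sum was 16535 to 23587 CPM at 2 months and 15446 to 20898 CPM at 6 months (log2 fold change -0.12 ± 0.10, adjusted p = 0.466).

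*Serpina3k*, the most abundant member, was 19184 to 27487 CPM at 2 months and 16771 to 22966 CPM at 6 months, with a log2 fold change of -0.12 ± 0.10 (adjusted p = 0.481). *Serpina6* was 72.8 to 162 CPM at 2 months and 48.7 to 150 CPM at 6 months, with a log2 fold change of -0.35 ± 0.19 (adjusted p = 0.254). Over the 10 members the median log2 fold change was -0.17, with 4 above 0 and 6 below.

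Between 12 and 2 months *Serpina3k* fell. It was the only member of 10 called by edgeR's test, in which 12% of 13361 genes passed, 6.32% higher and 5.66% lower. Its 12-month libraries held 9029 to 13684 CPM (median 12127), all below the lowest 2-month library of 19184 CPM. The ratio at the same time of day was 0.471 to 0.630, and the log2 fold change was -0.87 ± 0.10 (adjusted p = 5.05e-05). The same gene was also lower at 12 than at 6 months, without overlap (-0.75 ± 0.10, adjusted p = 0.000166).

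*Serpina3n* at 12 months was 118 to 230 CPM (median 165). These values were also below all 2-month values, but the spread of the fit left the log2 fold change of -0.84 ± 0.31 short of the threshold (adjusted p = 0.0838). Without the 6-month ZT5 library the value was -0.79 with an adjusted p of 0.0132. Of genes whose mean reached 1 CPM, 4.23% did not overlap between 12 and 2 months.

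*Serpina1e* was 2426 to 6229 CPM at 12 months (median 3846) and 4197 to 7363 CPM at 2 months (median 5140), with a log2 fold change of -0.45 ± 0.17 (adjusted p = 0.0920). It was lower at 4 time points, ZT9, ZT13, ZT17 and ZT21, and higher at ZT1 and ZT5. *Serpina1d* was lower at 6 of 6 time points (-0.32 ± 0.10, adjusted p = 0.0539). The *Serpina1* sum was lower at 6 of 6 time points as well (-0.26 ± 0.10, adjusted p = 0.0953). Of the other antitrypsin genes, *Serpina1a* (-0.14 ± 0.09), *Serpina1b* (-0.20 ± 0.10) and *Serpina1c* (-0.32 ± 0.12) did not pass either. *Serpina6*, *Serpina3m* and *Serpina10* had log2 fold changes of 0.30 ± 0.19, 0.03 ± 0.19 and -0.40 ± 0.19. The median over the 10 members was -0.32, with 8 below 0.

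The summed level of the listed B cell markers differed between these ages. The 5 listed summed to 10.8 to 20.7 CPM at 2 months and 39.1 to 288 CPM at 12 months, without overlap. Of the 5, 1 passed the test, *Ighm*, the gene of the IgM heavy chain, with a log2 fold change of 2.72 ± 0.35 (adjusted p = 0.000114). The median log2 fold change of the 5 was 0.79. In the WT and KO libraries the same 5 summed to 15.4 to 28.5 CPM at 2 months and 93.9 to 159 CPM at 12 months. Among markers of other cells, 2 of 5 for stellate cells and 1 of 3 tested for neutrophils (*S100a9*) rose at 12 months in the time course. Those that fell were 1 of 6 for hepatocytes (*Cps1*), 1 of 5 for sinusoidal endothelium (*Stab2*), 1 of 4 tested for cholangiocytes (*Spp1*) and 1 of 5 for stellate cells. No Kupffer cell, monocyte, T cell or exocrine pancreas marker passed. The part of all these markers in the results on 12-month mice was not tested.

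Between 12 and 6 months, 6 of 10 members passed the test, 1 higher and 5 lower, against 16.4% of genes, 7.86% higher and 8.5% lower. *Serpina3n* (log2 fold change -3.02 ± 0.33), *Serpina10* (-1.87 ± 0.20) and *Serpina3m* (-1.21 ± 0.19) were lower at 12 months at all 6 time points and without overlap. *Serpina1e* fell (log2 fold change -0.76 ± 0.17, adjusted p = 0.00605) and *Serpina6* rose (0.65 ± 0.19, adjusted p = 0.0279). *Serpina6* was higher at 6 of 6 time points, but its call was lost without ZT1, ZT5, ZT9 or ZT13, where adjusted p was 0.0549 to 0.0821. With the times of day not fitted as a block, neither *Serpina1e* (-0.71, adjusted p = 0.0521) nor *Serpina6* (adjusted p = 0.119) passed. The other antitrypsin genes were close to 0, at 0.07 ± 0.09 for *Serpina1a*, 0.09 ± 0.10 for *Serpina1b*, -0.0021 ± 0.12 for *Serpina1c* and 0.12 ± 0.10 for *Serpina1d*, and the *Serpina1* sum was at -0.14 ± 0.10 (adjusted p = 0.358). Of genes whose mean reached 1 CPM, 4.58% did not overlap between these ages. The 3 comparisons of ages share libraries and are not independent of each other.

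**Figure D2:**
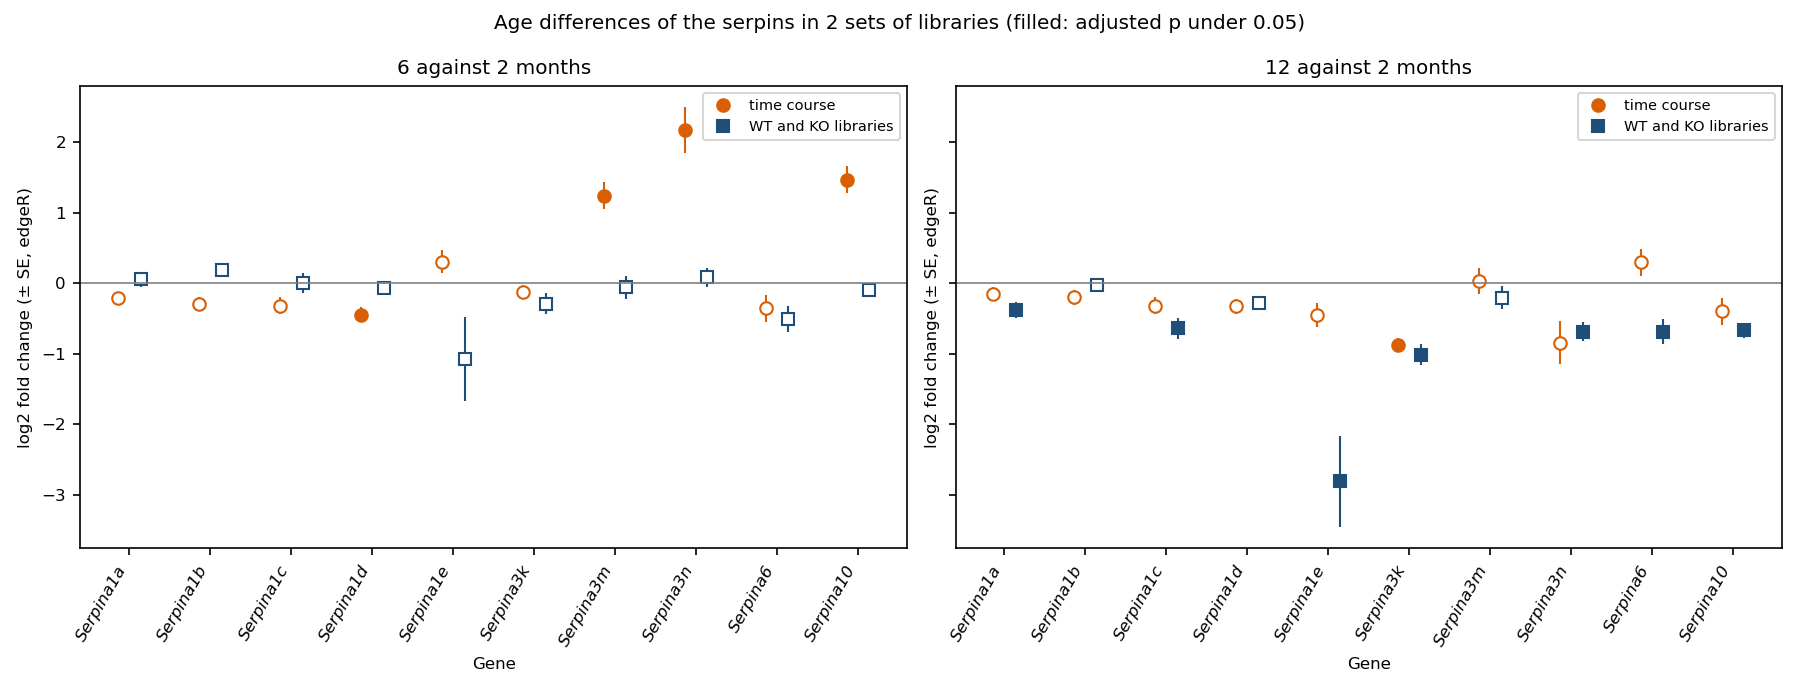
Points give the log2 fold change (± SE, edgeR) of each serpin at 6 (left) and 12 months (right) against 2 months, in the time course (circles) and in the WT and KO libraries (squares), with filled points where adjusted p was under 0.05. *Serpina3m*, *Serpina3n* and *Serpina10* are above 1 at 6 months in the time course and within 0.09 of 0 in the other libraries, and *Serpina3k* is below 0 at 12 months in both.

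The WT and KO libraries hold a separate comparison of the same ages. At 6 against 2 months, 0 of 10 members passed edgeR's test, which called 5.75% of 13639 genes, 2.86% higher and 2.89% lower. DESeq2 also called 0 members. In edgeR's test 1 member had an unadjusted p under 0.05, as had 2903 of 13639 genes. *Serpina3n* was 231 to 328 CPM at 2 months and 193 to 355 CPM at 6 months in these libraries, with a log2 fold change of 0.09 ± 0.13. *Serpina10* (-0.09 ± 0.10) and *Serpina3m* (-0.06 ± 0.17) were also close to 0. *Serpina6* was at -0.51 ± 0.18 (adjusted p = 0.125), *Serpina3k* at -0.29 ± 0.15 and *Serpina1e* at -1.07 ± 0.59 (adjusted p = 0.330). The other antitrypsin genes lay between -0.06 ± 0.09 for *Serpina1d* and 0.19 ± 0.09 for *Serpina1b*, with *Serpina1a* at 0.06 ± 0.11 and *Serpina1c* at 0.0062 ± 0.15, and the *Serpina1* sum was at -0.16 ± 0.13. The 18 acute-phase genes summed to 13667 to 20196 CPM in these 6-month libraries and to 52833 to 150904 CPM in those of the time course. The difference between both sets of libraries was not tested.

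At 12 against 2 months, 7 of 10 members passed, all lower, while 16.5% of genes passed, 6.79% higher and 9.74% lower. *Serpina3k* was 9350 to 15019 CPM in the 4 libraries of 2 months and 5100 to 6454 CPM in those of 12 months, without overlap (log2 fold change -1.01 ± 0.15, adjusted p = 0.00124). *Serpina10* (-0.67 ± 0.10), *Serpina3n* (-0.68 ± 0.13) and *Serpina6* (-0.68 ± 0.18) did not overlap between these ages either. These were 4 of 10 members, against 19.6% of 12706 genes whose mean reached 1 CPM. The sign of *Serpina6* was opposite to that of its value of 0.30 ± 0.19 in the time course, and its times of collection were not the same at both ages. Its call was lost without the WT or KO library of 12 months H, the KO library of 12 months L, the WT library of 2 months H or the KO library of 2 months L, where adjusted p was 0.0503 to 0.0843.

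*Serpina1e* had the lowest value of these, -2.81 ± 0.65 (adjusted p = 0.0118). *Serpina1c* (-0.64 ± 0.15), *Serpina1a* (-0.37 ± 0.11) and the *Serpina1* sum (-0.63 ± 0.13) also passed, and *Serpina1d* (-0.28 ± 0.09), *Serpina1b* (-0.02 ± 0.09) and *Serpina3m* (-0.20 ± 0.17) did not. The call of *Serpina1a* was lost with scaling by library totals (-0.28, adjusted p = 0.0779) and without any 1 of 6 of the 8 libraries, all but the WT libraries of 2 and 12 months L, where adjusted p was 0.0686 to 0.148. *Serpina1c* lost its call without the KO library of 2 months H (adjusted p = 0.0558). In WT libraries alone, with 2 for each age, 0 members passed and in KO libraries alone 1 passed, *Serpina1e*. The value of *Serpina1e* was -1.54 in WT alone (adjusted p = 0.257).

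The next question was whether the serpins followed the time of day. A 24-h curve shared by the 3 ages was called for 2 of 10 members, *Serpina6* and *Serpina1e*, and for 16.1% of genes. *Serpina6* peaked near ZT12.9, around the start of the night, and its log2 amplitude was 0.48 (adjusted p = 0.0108). *Serpina1e* peaked near ZT0.72, around the start of the day, with an amplitude of 0.40 (adjusted p = 0.0248). The *Serpina1* sum peaked near ZT0.50 with an amplitude of 0.21 (adjusted p = 0.0424), but not with no filter on low counts (0.12) or with any 1 age left out (0.138 to 0.288). With the 12-month libraries left out, 0 members were called (adjusted p = 0.126 for *Serpina6* and 0.178 for *Serpina1e*), and with the 6-month libraries left out *Serpina1e* was at 0.0807.

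*Serpina6*, the gene of corticosteroid-binding globulin, was the only member with a curve at each age by edgeR's cosinor, which called 5.1% of genes at 2 months, 4.84% in 6-month and 3.73% in 12-month mice. At 2 months it was 72.8 CPM at ZT21, 92.8 CPM at ZT1, 126 CPM at ZT5, 162 CPM at ZT9, 154 CPM at ZT13 and 91.1 CPM at ZT17. It was highest in the later part of the day, and the fitted peak was ZT9.51. At 6 months it was 48.7 CPM at ZT5, its lowest value of all 18 libraries, and 150 CPM at ZT17, with a fitted peak at ZT16.0. At 12 months it was 99.0 CPM at ZT21 and 220 CPM at ZT13, with a fitted peak at ZT12.6.

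The curve of *Serpina6* differed between 6 and 2 months (adjusted p = 0.0299). It was the only member of 10 for which this was called, and 0.135% of genes were called. Without the 6-month ZT5 library the adjusted p was 0.125, and with scaling by library totals it was 0.0690. At 6 months edgeR's cosinor also called *Serpina10*, *Serpina3n* and *Serpina3m*, with amplitudes of 0.80, 1.46 and 0.61 and peaks at ZT5.72, ZT5.80 and ZT5.01. Their amplitudes at 2 months were 0.06, 0.03 and 0.16, but the change of the curve did not pass (adjusted p = 0.0586, 0.0676 and 0.159). The ZT5 library was the highest of the 6-month libraries for each of these genes, at 918, 5217 and 1666 CPM. *Lcn2* was also highest there, at 2313 CPM, and next highest at ZT9, at 935 CPM. With 1 library for each time, time of day and the state of the ZT5 library cannot be told apart. The part of inflammation in these curves was not tested. Between 12 and 2 months 0 members were called by edgeR, as were 0% of genes. An unadjusted p under 0.05 was reached by 2 members and by 628 of 13361 genes. DESeq2 called 1 member, *Serpina1e*, and 14 genes.

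*Serpina1e* at 12 months fell into high and low times of day. It was 4761 CPM at ZT21, 5732 CPM at ZT1 and 6229 CPM at ZT5, and 2931 CPM at ZT9, 2426 CPM at ZT13 and 2461 CPM at ZT17. Its amplitude was 0.78 at 12 months (adjusted p = 0.00337) and 0.32 at both other ages.

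An exact permutation test of the kind used by JTK_cycle, over the 720 orders of 6 values, was run within each age, where the smallest p it allows is 0.0333. At 2 months 3 of 10 members reached it, *Serpina1c*, *Serpina1e* and *Serpina6*, as did 8.71% of genes. At 6 months 4 members reached it, *Serpina1a*, *Serpina3m*, *Serpina6* and *Serpina10*, as did 8.14% of genes. With scaling by library totals, the exact test no longer reached it for *Serpina1e* and *Serpina6* at 2 months (p = 0.1333 for each) or for *Serpina1a* at 6 months (p = 0.3167), and it did for *Serpina1a* at 2 months. At 12 months 0 members reached it by this test, as did 6.47% of genes, and edgeR's cosinor called 2, *Serpina6* and *Serpina1e*. At 6 months the cosinor called *Serpina3n*, which had p = 0.1333 in the exact test, and not *Serpina1a* (adjusted p = 0.490).

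**Figure D3:**
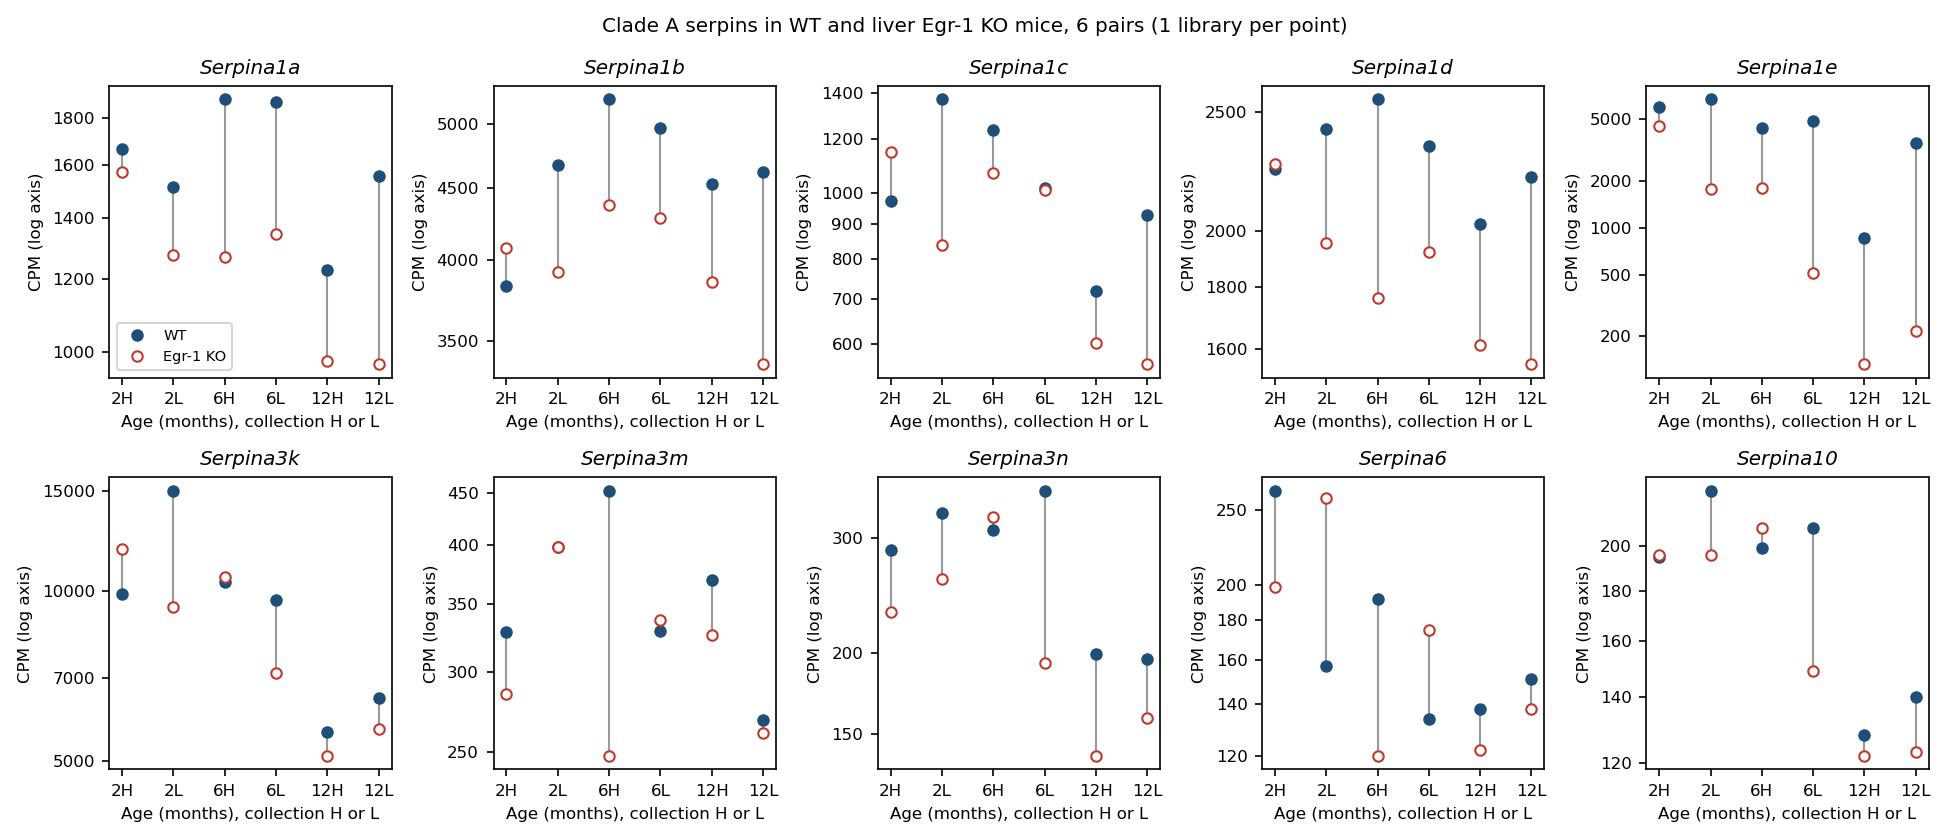
Each panel plots CPM (log axis) of a serpin gene in the WT (filled) and KO (open) library of each of 6 pairs, given by age in months and collection H or L, with 1 library per point and a line joining each pair. *Serpina1e* is lower in the KO library in 6 of 6 pairs, from 6040 to 4519 CPM at 2 months H to 3511 to 215 CPM at 12 months L.

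The last comparison asks how loss of *Egr-1* in the liver was reflected in the serpins. *Egr1* itself was lower in the library labelled KO in 4 of 6 pairs. It was 72.4 against 5.54 CPM at 6 months H, 24.9 against 4.92 CPM at 6 months L and 54.8 against 1.53 CPM at 12 months L, and 2.57 against 1.99 CPM at 2 months H, where the counts were 50 and 41. At 2 months L the library labelled KO held more, 7.43 against 1.45 CPM, and at 12 months H both were alike, 6.11 and 5.83 CPM. Directions below follow the labels.

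*Serpina1e* fell in the libraries labelled KO. At 2 months it was 6040 CPM in the WT and 4519 CPM in the KO library at H, and 6730 and 1776 CPM at L. At 6 months it was 4386 and 1798 CPM at H, and 4840 and 513 CPM at L. At 12 months it was 859 and 132 CPM at H, and 3511 and 215 CPM at L. The KO library was lower in every pair, at 74.8% of WT in the pair that differed least and 6.12% in the pair that differed most. The ranges of all WT (859 to 6730 CPM) and all KO libraries (132 to 4519 CPM) still overlapped.

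The log2 fold change of *Serpina1e* over the 6 pairs was -2.27 ± 0.42 (edgeR, adjusted p = 0.0348). It was the only member of 10 called, and 1.57% of 13639 genes were called, 0.799% higher and 0.77% lower. Leaving out any of the 5 pairs other than 2 months H raised the adjusted p to between 0.0538 and 0.0973, with log2 fold changes of -2.49 to -1.92. Without the pairs at 2 months L and 12 months H, in which *Egr1* was not lower, it was -2.24 (adjusted p = 0.198), and without the pairs as a block it was -1.56 (adjusted p = 0.502). *Serpina1e* and *Serpina1a* were lower in KO in 6 of 6 pairs, as were 4.79% of genes whose mean reached 1 CPM.

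The difference was -1.17 ± 0.53 in 2-month mice, -2.26 ± 0.55 in 6-month mice and -3.37 ± 0.56 in 12-month mice. By time of collection it was -1.46 ± 0.45 for H and -3.07 ± 0.47 for L. The tests of these differences themselves did not pass. For genotype by age, 0 members were called (0.0147% of genes), and 0 had an unadjusted p under 0.05, against 428 of 13639 genes. *Serpina1e* had an adjusted p of 0.9999 there. For genotype by time of collection, 0 members were called (0.00733% of genes), and 4 had an unadjusted p under 0.05, as had 718 of 13639 genes. *Serpina1e* had a difference of L over H of -1.61 ± 0.63 (adjusted p = 0.943). DESeq2 called 0 members in both.

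The *Serpina1* sum also fell, with a log2 fold change of -0.59 ± 0.11 (adjusted p = 0.0386). It was 14756 and 13580 CPM in WT and KO at 2 months H and 12828 and 6668 CPM at 12 months L, and it was lower in 6 of 6 pairs. Leaving out any of the same 5 pairs ended this call too, with adjusted p of 0.0756 to 0.109.

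**Figure D4:**
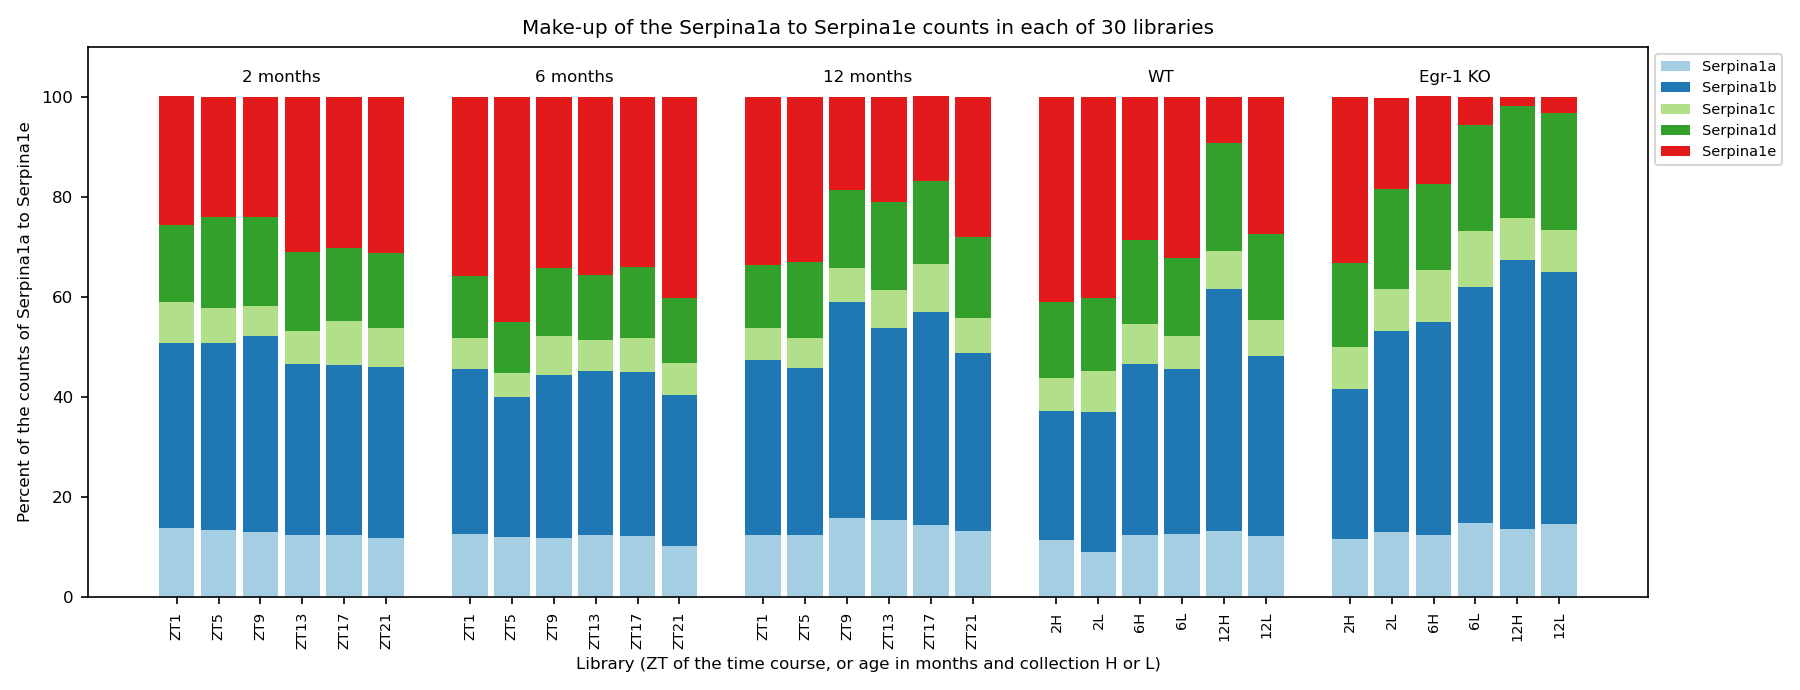
Each bar splits the counts of *Serpina1a* to *Serpina1e* in a library into the percent of each gene, for the 18 time course libraries by ZT and the 12 WT and KO libraries by age in months and collection. *Serpina1e* holds 24.1% to 31.2% at 2 months in the time course, 9.18% to 40.9% in WT and 1.84% to 33.3% in KO libraries.

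The share of *Serpina1e* in the sum does not depend on how libraries are scaled. In WT libraries it was 9.18% to 40.9% (median 30.5%) and in KO libraries 1.84% to 33.3% (median 11.6%). It was lower in KO in 6 of 6 pairs, with differences of -26.6 to -7.34 percentage points (mean -16.5 ± 8.75, SD, n = 6). An exact permutation test that flips the sign of pairs gave p = 0.0312, the smallest it can give with 6 pairs, and 0.0468 adjusted over 3 such tests. This measure was chosen after its values were seen. In the time course the share was 24.1% to 31.2% at 2 months and 33.9% to 45.0% at 6 months, higher at 6 of 6 time points (exact permutation p = 0.0312, adjusted p = 0.0468). At 12 months it was 17% to 33.7%, and the difference from 2 months was -2.55 ± 9.17 percentage points (exact permutation p = 0.531). By median, *Serpina1b* had the largest share in both genotypes, 44.9% in KO and 33.5% in WT libraries.

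The other 9 members also had log2 fold changes below 0 in KO, none of which passed the test. *Serpina1a* was 1228 to 1887 CPM in WT (median 1611) and 969 to 1571 CPM in KO (median 1271), lower in 6 of 6 pairs (-0.40 ± 0.09, adjusted p = 0.0584). *Serpina1d* (-0.33 ± 0.08, adjusted p = 0.0902) and *Serpina3n* (-0.38 ± 0.10, adjusted p = 0.106) were lower in 5 of 6 pairs. DESeq2 called these 3 genes together with *Serpina1e*, with adjusted p of 0.000651, 0.00749 and 0.0112. *Serpina1c* and *Serpina1b* were at -0.28 ± 0.13 and -0.22 ± 0.08.

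*Serpina3k* (-0.19 ± 0.12), *Serpina3m* (-0.21 ± 0.11), *Serpina10* (-0.15 ± 0.08) and *Serpina6* (-0.05 ± 0.16) had the values closest to 0 on this scale. *Serpina6* was lower in KO at H in 3 of 3 pairs and higher at L at 2 and 6 months, where it was 157 and 259 CPM and 134 and 175 CPM in WT and KO. Its difference of L over H did not pass edgeR's test of genotype by time of collection (0.75 ± 0.22, adjusted p = 0.855). With scaling by library totals the log2 fold change of *Serpina6* in KO was 0.06. The median over the 10 members was -0.25.

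Of 6 listed hepatocyte markers, 2 were lower in KO. *Alb*, the albumin gene whose promoter also drives Cre here, was 52419 to 66783 CPM in WT and 26339 to 36312 CPM in KO, without overlap, and its log2 fold change was -0.88 ± 0.11 (adjusted p = 0.00969). *Apoa1*, the main protein of high-density lipoprotein, was at -0.76 ± 0.09 (adjusted p = 0.00969). The 6 hepatocyte markers summed to 71511 to 92580 CPM in WT and 41342 to 59845 CPM in KO. The other 4 did not pass, at -0.18 ± 0.10 for *Ttr*, -0.15 ± 0.08 for *Cps1*, -0.29 ± 0.07 for *Apoh* and 0.09 ± 0.10 for *Ass1*. Of 5 B cell markers 1 was higher in KO, *Ighm* (1.06 ± 0.12, adjusted p = 0.00769). Of 5 stellate cell markers 1 was higher, *Col1a1*, and of 4 tested cholangiocyte markers 1 was lower, *Sox9*. No marker of the other listed cell types passed. The part of these markers in the serpin values was not tested.

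Other serpins and the proteases they control were counted from lists. In KO libraries 1 of 9 further clade A serpins tested was lower and none was higher, *Serpina12* (vaspin), with a log2 fold change of -0.93 ± 0.18 (adjusted p = 0.0392). Of 13 tested serpins of other clades, 2 were lower, *Serpind1* (heparin cofactor II, -0.38 ± 0.06) and *Serpinf2* (alpha-2 antiplasmin, -0.42 ± 0.07). Of 9 tested target proteases and cofactors, 3 were lower, *F11* (coagulation factor XI, -0.44 ± 0.08), *Proz* (protein Z, the cofactor of *Serpina10*, -0.30 ± 0.06) and *Klkb1* (plasma kallikrein, -0.35 ± 0.07). The fibrinogen genes *Fga*, *Fgb* and *Fgg* were the 3 of 18 acute-phase genes that passed, at -0.39, -0.48 and -0.40.

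In the time course at 6 against 2 months, *Serpina7* (thyroxine-binding globulin) rose by 2.75 ± 0.31 on the log2 scale, and *Serpina12* (-1.09 ± 0.17) and *Serpina9* (-1.02 ± 0.20) fell, out of 9 tested. The cytokine signalling genes *Stat3* (0.96 ± 0.13), *Socs3* (2.62 ± 0.41) and *Osmr* (1.45 ± 0.28) rose with 2 more of 14, while 2 fell. *Prtn3*, a protease of neutrophils, rose by 4.37 ± 0.28, and *F11* and *Klkb1* were 2 of the 3 target genes that fell. Of 12 tested serpins of other clades, 4 rose and 1 fell. At 12 against 2 months, *Serpina7* (3.75 ± 0.33) was higher again and *Serpina9* (-2.27 ± 0.22) and *Serpina12* (-0.80 ± 0.17) lower.

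Genes that help secreted proteins fold and leave the cell changed at 12 months. Of 14 listed, 9 were lower and 0 higher than at 2 months, with a median log2 fold change of -0.58. They included the chaperones *Calr* (-0.68 ± 0.14) and *Hspa5* (-0.89 ± 0.19) and the cargo receptor *Lman1* (-0.42 ± 0.10). At 6 months 1 of the 14 was lower, *Lman1*. Of 8 glucocorticoid-responsive genes, 2 were lower at 12 months, *Tsc22d3* (-0.66 ± 0.17) and *Dusp1* (-0.58 ± 0.17).

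*Serpina3n* and *Serpina10* varied most over the 18 time course libraries, with SDs of 1.43 and 0.89 on the log2 scale. The genes whose log2 CPM came closest to theirs, by root mean square difference after centring each gene, were taken from 7228 genes whose mean reached 10 CPM. For *Serpina3n* they were *Lrg1* (0.37), *Steap4* (0.43) and *Orm1* (0.53). For *Serpina10* they were *Prg4* (0.22), *Rpap3* (0.22) and *Itih3* (0.29). *Rpap3* reached a mean of 10 CPM only through the 6-month libraries, where it was 10.6 to 53.1 CPM. It was at most 6.29 CPM at 2 months and 6.17 CPM in 12-month mice, so its place here depends in part on that limit. *Lrg1* was 237 to 311 CPM at 2 months and 653 to 2468 CPM at 6 months, with the ZT5 library highest. In the 12 WT and KO libraries, *Serpina1e* had an SD of 1.93 and a range of 51.0 times. The genes closest to it, chosen after its values were seen, were *Selenbp2* (0.65), *Enho* (0.91) and *Cdh1* (1.00) of 7804 genes. *Selenbp2*, a selenium-binding protein, was 949 and 899 CPM in WT and KO at 2 months H and 160 and 27.4 CPM at 12 months L.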

How the data were processed

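Per the labels and the methods of the study, polyA RNA of mouse liver was sequenced, and the authors trimmed reads with fastp, aligned them to mm10 with HISAT2 and counted them per gene with featureCounts; versions and the strand setting are not given in the sources used here. The deposited values are raw counts, in a table of 18 time course libraries and another of 12 WT and KO libraries, and all columns were used. Gene positions are from GENCODE M21 (GRCm38).

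All genes were fitted in edgeR 4.0.16 (R 4.3.3, TMM scaling, filterByExpr, quasi-likelihood F-test), p-values were adjusted by Benjamini-Hochberg over all genes tested, and the threshold was 0.05. The SE of a log2 fold change was its absolute value divided by the square root of the F statistic of its test. Each table was fitted on its own. Age was tested with ZT as a block, genotype with the 6 pairs of the same age and collection as a block, and rhythm with 24-h cosine terms. In the WT and KO libraries age was fitted with genotype, without collection time. CPM are TMM-scaled. Within ages an exact permutation test over 720 orders was used for genes whose mean reached 1 CPM. The *Serpina1* sum replaced its 5 rows in a refit. The steps were tested on simulated data. DESeq2 1.42.0 and the other alternatives appear in the closing section. Intervals cover counting error only. Which exons of *Egr1* were removed is not given in the sources used here, and its counts cover the whole gene.

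All 10 members and their sum were tested in every comparison. From each list of other genes at most the 3 called genes with the smallest p were named, and the genes closest to the 2 most variable members of the time course were named by likeness. Members and lists were chosen with earlier results of these data known. The comparison of 6 with 2 months among WT and KO libraries, the share of *Serpina1e* and its closest genes were added after values were seen.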

Additional observations from a re-analysis of the deposited data

Results flagged for a closer look

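In 5 of 55 groups of 6 libraries, the highest or lowest library stood farther from the next than Dixon's 95% limit of 0.625 of the range. Chance alone marks about 1 in 20 groups. At 2 months the ZT21 library was high for *Serpina1e* (7363 CPM) and *Serpina3k* (27487 CPM). At 6 months the ZT5 library was high for *Serpina3m* (1666 CPM) and *Serpina3n* (5217 CPM). At 12 months the ZT13 library was low for *Serpina1b* (4440 CPM). The daily curve of *Serpina6* differed between 6 and 2 months (edgeR's test of the difference, adjusted p = 0.0299).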

How the results depend on the processing

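Of 1500 values recomputed under other settings, 1322 kept their direction and their side of the threshold or stayed within 1.5 times, 67 lost and 39 gained a call, 34 moved and 38 changed sign; the cause was not tested.

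For genotype, 1 member was called, and 4 were with no filter on low counts or with DESeq2. None (0) was called without the replicate block, in the H pairs alone or without the pairs whose *Egr1* was not lower (chosen after seeing the data), and 0 to 2 were when leaving out a pair. The *Serpina1* sum lost its call at -0.59 with the study's fold threshold and without the *Egr1* pairs, at -0.57 without the block, at -0.36 in H and -0.84 in L pairs, and ranged from -0.69 to -0.52 when leaving out a pair. *Serpina6* changed sign with library totals (0.064), in L pairs (0.30) and when leaving out a pair (-0.21 to 0.072), and in H pairs *Serpina3k* (0.051) and *Serpina10* (0.0046) did. Without the filter, genotype by age gave 1 member and genotype by time 2. Over all genes the 214 calls became 437 with library totals or DESeq2, 636 with no filter, 22 with the study's thresholds, 24 without the block, 2 in H and 51 in L pairs, 9 without the *Egr1* pairs and 45 at the lowest leaving out a pair. Library totals shifted the median of all genes to 0.111 and the split to 370 higher and 67 lower, against 109 and 105.

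For 12 against 2 months, 1 member was called, against 4 with no filter, 3 with DESeq2 and 0 with the study's thresholds. Without the 6-month ZT5 library (chosen after seeing the data) 3 were called, and 1 to 3 when leaving out a time. Over all genes the calls were 1986 of 25804 with no filter, 1900 of 13361 with DESeq2 and 1949 of 13498 without that library. DESeq2 called the sum (-0.26). *Serpina3m* ranged from -0.022 to 0.15. For 12 against 6 months, the study's thresholds left 3 members, and *Serpina1c*, near 0, was 0.019 with DESeq2 or its size factors, 0.079 with library totals, 0.018 scaled without the members, and -0.06 to 0.064 when leaving out a time. The study's thresholds left 264, 242 and 291 genes for 6 against 2, 12 against 2 and 12 against 6 months, and no replicate block left 1052, 1006 and 1416; leaving out a time gave as few as 1170, 920 and 1239. With library totals the split was 1193 higher and 413 lower for 12 against 2 months (844 and 756 with TMM) and 1709 and 650 for 12 against 6 months (1050 and 1136).

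For the shared curve, DESeq2 called 4 members and 2756 of 13361 genes. Leaving out an age gave 0 to 2 members, and gene calls fell from 2147 to as few as 749. The adjusted p of the sum was 0.12 with no filter and 0.138 to 0.288 when leaving out an age. Within ages, edgeR's cosinor called 1 member at 2 months and 2 at 12 months. At 6 months it called *Serpina6*, *Serpina10*, *Serpina3n* and *Serpina3m*. For the change of curve at 6 months, 0 were called with library totals or without the ZT5 library, 3 with no filter and 4 with DESeq2, and 18 gene calls became 8, 3, 133 and 210. At 12 months DESeq2 called 1 member and 14 genes, and no filter gave 4 genes. Genotype by age gave 1, 100 and 11 genes and genotype by time 0, 117 and 23 with library totals, no filter and DESeq2.

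Among WT and KO libraries, 12 against 2 months gave 0 members in WT alone (sum -0.49) and 1 in KO alone (sum -0.73), with 58 and 365 gene calls and 1415 at the lowest leaving out a library. The mean of the 5 *Serpina1* values was -0.82. *Serpina1b* was 0.07 with library totals, 0.12 in WT alone and -0.10 to 0.062 leaving out a library. The split with library totals was 1279 higher and 793 lower, against 926 and 1329. For 6 against 2 months, 3 members were called with no filter and 0 to 1 leaving out a library, and gene calls were 1475 with no filter, 1219 with DESeq2, 0 in WT alone, 6 in KO alone and 273 at the lowest leaving out a library. WT alone gave -0.069 for *Serpina1c*, 0.062 for *Serpina1d* and 0.094 for *Serpina3m*, and KO alone -0.12 for *Serpina1a*. Leaving out a library gave -0.013 to 0.17 for *Serpina1a*, -0.086 to 0.11 for *Serpina1c*, -0.12 to 0.017 for *Serpina1d*, -0.19 to 0.056 for *Serpina3m*, -0.063 to 0.22 for *Serpina3n* and -0.18 to 0.0034 for *Serpina10*. With 646 counts or more for each member, counting error was small beside the spread between libraries.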
